A study of Mus musculus with 8 samples.

Results

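Sphingosine and lysophosphatidic acid signalling was followed through 10 genes: the S1P receptors S1pr1, S1pr2 and S1pr3, the LPA receptors Lpar1, Lpar2, Lpar3, Lpar4 and Lpar6, and the sphingosine kinases Sphk1 and Sphk2. The members were chosen by gene symbol, with earlier results of these same arrays known. Their expression values, intervals and counts of calls are therefore given as a description, and nothing is read from them as a test. They are 10 of the 15653 genes that could be named, and 12 of 22523 probe sets. Lpar1 and Sphk2 each had 2 probe sets with identical values, which were counted once, leaving 10 value profiles of 18172.

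Expression was measured on 8 Affymetrix arrays of total RNA from mouse fetal fibroblast lines, all held for 48 h in medium with 65 µM ZnCl2 and 5 µg/ml puromycin. ASYM denotes 3 cultures of Ind-8, a p53-null line carrying a wild-type mouse p53 cDNA under a zinc-inducible metallothionein promoter, which under zinc divides by asymmetric self-renewal. SYM denotes 3 cultures of Con-3, a p53-null line that the labels call the congenic parent of Ind-8 and the methods describe as carrying the promoter vector without p53. The label p53SYM denotes 2 cultures of tI-3, a derivative of Ind-8 that makes p53 under zinc, expresses an IMPDH II cDNA constitutively and was also given G418. The step that IMPDH II catalyses limits how fast cells make guanine nucleotides. Each state was a single line, so state and line cannot be told apart. Differences are written A for ASYM minus SYM, B for ASYM minus p53SYM, and C for p53SYM minus SYM, and any pair of these comparisons shares the arrays of a line. Values are log2 expression after RMA.

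Sphingosine 1-phosphate (S1P) and lysophosphatidic acid (LPA) are lipid mediators that act outside the cell, each through its own set of G protein-coupled receptors. The sphingosine kinases make S1P from sphingosine, and the secreted enzyme autotaxin, product of Enpp2, makes most extracellular LPA. In fibroblasts the receptors are known to couple to Gi, Gq and G12/13 proteins, and to act on the actin cytoskeleton and the YAP coactivator.

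The labels were checked first. Trp53 was at 5.68, 5.87 and 5.80 in ASYM, 5.21, 5.29 and 5.27 in SYM, and 5.60 and 5.69 in p53SYM. Both p53-restored lines lay above every SYM array (A, log2 difference 0.53, SE 0.09, limma adjusted p = 0.00192; C, 0.39, SE 0.10, limma adjusted p = 0.0144). The C call ended without p53SYM replicate 2 (0.34, limma adjusted p = 0.109) and with the hybridization control level, described below, as a block (0.38, limma adjusted p = 0.101), at differences near the first. Which part of the gene is missing in the p53-null cells, and whether the probes read the cDNA, is not given in the sources used here, so this check is a limited one. Impdh2 lay between 12.16 and 12.22 in ASYM, between 12.51 and 12.56 in SYM, and at 12.34 and 12.38 in p53SYM. Its lowest values were thus in ASYM, below SYM by 0.34 (SE 0.08, limma adjusted p = 0.0108), while ASYM and p53SYM differed by 0.17 (SE 0.09), which missed the threshold at a limma adjusted p of 0.163. Both p53SYM arrays were below every SYM array (C, -0.17, SE 0.09, limma adjusted p = 0.182), which is not the direction that the constitutive cDNA of the label would give. Whether the probes of Impdh2 read that cDNA is not given in the sources used here, so Impdh2 neither supports nor excludes this label. The metallothionein gene Mt1 was bright in all 8 arrays, from 13.47 to 13.95, and all 8 cultures had received zinc.

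Of 7 fibroblast markers, 6 (Col1a1, Col1a2, Col3a1, Vim, Pdgfrb and S100a4) were above 4.30, the 25th percentile of all probe sets, in all 8 arrays. Thy1, a surface marker of many fibroblasts, stayed near that dim level, from 3.81 to 4.63. Col1a1 lay between 12.02 and 12.66 in ASYM and between 11.59 and 12.17 in SYM, and was at 10.64 and 11.06 in p53SYM. Col3a1 was at 6.26 and 6.51 in p53SYM, and at or above 7.91 in the 6 other arrays. Col1a1 and Col3a1 were thus lowest in p53SYM, with limma adjusted p-values in the C comparison of 0.00474 and 0.000621. The Col1a1 call ended without p53SYM replicate 1, at a C difference of -0.85 against -1.06 in the full fit. Col1a2 did not share this, at a C difference of -0.01 (limma adjusted p = 0.970). Pdgfrb and Thy1 were higher in p53SYM than in SYM, by 0.33 and 0.37 (limma adjusted p = 0.0300 and 0.0275), calls that ended with the control level as a block and without any 1 of 4 of the 5 arrays compared. With that block the differences were 0.43 and 0.24 (limma adjusted p = 0.0517 and 0.280). Vim was the brightest of the 7 genes on average, and brightness of different probe sets does not rank abundance. The summed level of the 7 genes was 15.34, 15.49 and 15.47 in ASYM, 15.12, 15.26 and 15.26 in SYM, and 15.21 and 15.00 in p53SYM. Among the 4 endothelial markers, Pecam1 and Tek were below 4.30 in all 8 arrays and Kdr, the brightest, was above it. The summed level was 6.58 to 6.72 in ASYM, 6.85 to 7.01 in SYM, and 7.15 and 7.26 in p53SYM. Limma called Kdr in A (-0.32, limma adjusted p = 0.0377), B (-0.76, limma adjusted p = 0.000877) and C (0.44, limma adjusted p = 0.0133). With the control level as a block these calls ended, at -0.28, -0.63 and 0.36. The A call of Kdr also ended without any 1 of 5 of the 6 arrays compared. For blood cells, Ptprc and Itgam were below 4.30 in all 8 arrays while Cd3e, the brightest of the 3 measured, was at 5.28 to 5.42 in ASYM and SYM and at 5.66 and 5.88 in p53SYM. Limma called Cd3e in B (-0.43, limma adjusted p = 0.0107) and C (0.42, limma adjusted p = 0.0132). Both calls ended with the control level as a block (-0.33 and 0.35) and without p53SYM replicate 2 (-0.32 and 0.31). For epithelium, Cdh1 and Krt14 were below 4.30 in all 8 arrays and the brightest, Epcam, lay between 4.11 and 4.61. The summed blood cell level was 5.96 to 6.15 in ASYM and SYM and 6.22 and 6.38 in p53SYM, and the epithelial one was 5.42 to 5.65 and then 5.67 and 5.76. The part of these markers in the p53SYM values below was not tested.

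One array stood apart in its control probe sets. SYM replicate 3 read 11.38 for the 3′ probe set of 18S ribosomal RNA, against 6.59 to 7.67 in the other 7 arrays. The mean of 14 hybridization control probe sets, which read bacterial transcripts added to each sample, was high in SYM replicate 3 and both p53SYM arrays (9.43 to 9.71) and low in the 5 others (8.98 to 9.16). ASYM arrays were all low and p53SYM arrays all high, so in the B comparison the control level and the line cannot be told apart except through SYM, which has both. The 3′ minus 5′ log2 value of actin was 0.141 to 0.192 in ASYM, 0.110 to 0.135 in SYM, and 0.058 and 0.070 in p53SYM, while for Gapdh the lines overlapped. The 25th percentile of an array was 4.38 in SYM replicate 3, 4.39 and 4.43 in p53SYM, and 4.19 to 4.27 elsewhere. The part of these measures in the differences below was not tested. Values without SYM replicate 3, or within arrays of 1 control level, are given below beside the members that differ. At the high level SYM has replicate 3 alone, so C within that level sets the p53SYM arrays against this 1 array. The C difference with the control level as a block is the same value.

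S1pr3, a receptor for S1P that couples to Gi, Gq and G12/13, showed the widest span of the 10 members. Its values were 4.85, 5.08 and 4.70 in ASYM, 8.41, 8.48 and 8.32 in SYM, and 4.50 and 4.89 in p53SYM. The 3 SYM arrays were high and lay together, the 5 arrays of both p53-restored lines were low, and no ASYM or p53SYM array came near a SYM array. ASYM was below SYM by 3.53 log2 units (SE 0.13), an 11.5-fold difference, and p53SYM was below SYM by 3.71 (SE 0.14), a 13.1-fold difference. The low arrays, at 4.50 to 5.08, were not far above 4.30, and no measure of background was among the values used. The folds are therefore those of the RMA values, and whether background in the low arrays narrowed them was not tested. Between ASYM and p53SYM the arrays overlapped, and the log2 difference was 0.18 (SE 0.14, 95% interval -0.14 to 0.50). Its size and sign hung on single arrays: it was -0.012 without p53SYM replicate 1, 0.38 without p53SYM replicate 2 and 0.079 without ASYM replicate 2. On quantile normalization again it was 0.36, and with the hybridization control level as a block 0.056. Without SYM replicate 3 the A difference was -3.57 (SE 0.15) and the C difference -3.75 (SE 0.16). Within the arrays of high control level, where SYM has replicate 3 alone, p53SYM minus SYM was -3.63. In cultures measured in bulk, fewer cells that carry a transcript and less of it in each cell cannot be told apart.

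The promoter window of S1pr3 is shown because the gene separates the lines more widely than any other member. It lies at chr13:51408368-51408667 on the plus strand of GRCm38.p6 and runs from 250 bases before the annotated start to 50 after it, as given by RefSeq. Capitals mark the GC box letters GGGCGG, searched on both strands together with TATAAA and the p53 half-site.
S1pr3: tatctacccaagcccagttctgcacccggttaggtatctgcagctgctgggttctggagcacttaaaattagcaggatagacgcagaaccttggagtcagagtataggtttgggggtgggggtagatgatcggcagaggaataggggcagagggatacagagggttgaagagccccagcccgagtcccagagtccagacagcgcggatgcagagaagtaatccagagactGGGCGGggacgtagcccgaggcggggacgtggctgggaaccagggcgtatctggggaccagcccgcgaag
The window held 1 GC box and 14 CpG dinucleotides, against a median of 7 CpG over 32817 RefSeq promoter windows. A GC box occurred in 35.6% of those windows, TATAAA in 13.6% and a p53 half-site in 8.36%, and the latter 2 were not found in these 300 bases. Such matches describe the letters alone and name no binding site. Windows were at hand for 9 of the 10 members, S1pr1 being the other one.

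**Figure D1:**
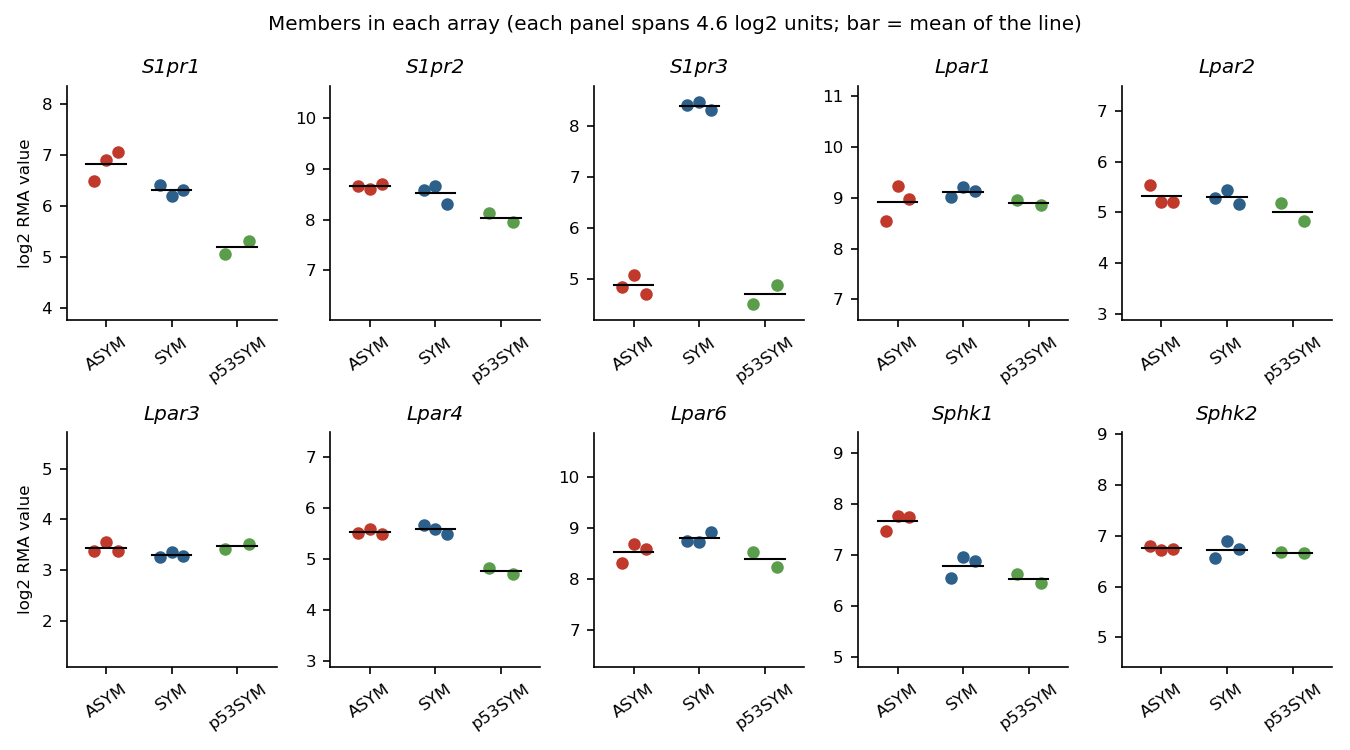
Log2 RMA value of each member in each array, by line (ASYM 3 arrays, SYM 3, p53SYM 2), with a bar at the mean of the line; every panel spans 4.6 log2 units around its own level. S1pr3 is at 8.32 to 8.48 in SYM and at 4.50 to 5.08 elsewhere, whereas Lpar1, Lpar2, Lpar3, Lpar6 and Sphk2 each span between 0.28 and 0.69 log2 units over the 8 arrays.

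S1pr1, an S1P receptor that couples to Gi, gave a different order of the lines. It was at 6.49, 6.91 and 7.05 in ASYM, 6.42, 6.19 and 6.31 in SYM, and 5.06 and 5.31 in p53SYM. ASYM was highest, SYM intermediate and p53SYM lowest, and the arrays of the 3 lines did not overlap, although ASYM replicate 1 and SYM replicate 1 were close. The log2 difference was 1.63 (SE 0.16) between ASYM and p53SYM, which is 3.10-fold. Between p53SYM and SYM it was -1.12 (SE 0.16), and between ASYM and SYM 0.51 (SE 0.14). Without SYM replicate 3, which leaves only arrays of low control level in A, the A difference was 0.51 with an SE of 0.17. Among arrays of high control level, with SYM replicate 3 alone for SYM, p53SYM minus SYM was -1.12.

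S1pr2 is the S1P receptor that couples most strongly to G12/13 proteins. Its values were 8.65, 8.59 and 8.70 in ASYM, 8.58, 8.66 and 8.32 in SYM, and 8.13 and 7.95 in p53SYM. ASYM and SYM overlapped and p53SYM lay below both, with SYM replicate 3 nearest to it. The B difference was 0.61 (SE 0.12), and the C difference was -0.48 (SE 0.12). With the hybridization control level as a block they were nearer to 0, at 0.31 (SE 0.17) for B and -0.28 (SE 0.13) for C. The A difference was 0.13 (SE 0.11, 95% interval -0.11 to 0.37), or 0.030 without SYM replicate 3 and 0.20 without SYM replicate 2.

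Among the LPA receptors, Lpar4 was the one whose lines lay farthest apart. Lpar4, a receptor of the purinergic cluster rather than the Edg family, was at 5.51, 5.59 and 5.50 in ASYM, 5.68, 5.60 and 5.50 in SYM, and 4.83 and 4.70 in p53SYM. Both p53SYM arrays were below the 6 others, which overlapped. The B difference was 0.77 (SE 0.10), and it was 0.63 (SE 0.16) with the hybridization control level as a block. For C the difference was -0.83 (SE 0.10), or -0.74 within the arrays of high control level, where SYM has replicate 3 alone. ASYM and SYM differed by -0.06 (SE 0.09, 95% interval -0.25 to 0.14), from -0.10 without SYM replicate 3 to -0.015 without SYM replicate 1. The window of Lpar4, shown because its lines differ most among the LPA receptors, lies at chrX:106920375-106920674 on the plus strand of GRCm38.p6.
Lpar4: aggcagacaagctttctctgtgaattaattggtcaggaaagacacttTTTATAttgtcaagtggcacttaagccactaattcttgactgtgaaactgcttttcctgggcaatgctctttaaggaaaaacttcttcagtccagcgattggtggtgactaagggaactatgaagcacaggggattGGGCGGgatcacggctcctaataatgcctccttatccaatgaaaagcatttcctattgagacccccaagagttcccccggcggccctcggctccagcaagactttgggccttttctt
Capitals mark 1 GC box and 1 TATAAA read on the opposite strand, and 1 p53 half-site was found, which reads on both strands and overlaps neither. CpG dinucleotides numbered 6, near the median of 7.

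Lpar6, the other purinergic-type LPA receptor measured, was at 8.32, 8.69 and 8.58 in ASYM, 8.75, 8.72 and 8.91 in SYM, and 8.52 and 8.24 in p53SYM. SYM arrays were the highest, by a margin of hundredths over the nearest ASYM array, and ASYM and p53SYM overlapped. The C difference was -0.41 (SE 0.13), the A difference -0.27 (SE 0.12) and the B difference 0.15 (SE 0.13). The A difference was -0.16 without ASYM replicate 1. For B it was 0.0053 without p53SYM replicate 2, 0.29 without p53SYM replicate 1, 0.25 without ASYM replicate 1 and 0.068 without ASYM replicate 2. Quantile normalization again gave -0.0029 in B, and the hybridization control level as a block 0.32 (SE 0.22). The C difference was -0.27 without p53SYM replicate 2, -0.56 without p53SYM replicate 1 and -0.36 without SYM replicate 3. It was -0.29 (SE 0.13) on quantile normalization again and -0.53 (SE 0.18) with the hybridization control level as a block. Lpar6 lies inside the span of Rb1 in the RefSeq table, and the probe set of Rb1 had another pattern: 7.46, 8.15 and 7.14 in ASYM, 6.83, 6.83 and 6.79 in SYM, and 6.81 and 6.69 in p53SYM. Rb1 was thus highest in ASYM, where Lpar6 was not.

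The Edg-family LPA receptors differed little between lines. Lpar1, the main LPA receptor of many mesenchymal cells, ranged from 8.55 to 9.24 in ASYM, from 9.01 to 9.21 in SYM and from 8.85 to 8.96 in p53SYM. ASYM covered the values of both other lines, and the A difference was -0.20 (SE 0.15, 95% interval -0.53 to 0.14). It was -0.0093 without ASYM replicate 1 and -0.35 without ASYM replicate 2. Lpar2 ranged from 4.84 to 5.53 over the 8 arrays and Lpar3 from 3.27 to 3.55. All 8 Lpar3 values were below 4.30, so that this probe set gave no more than a dim signal in any line. For Lpar2 the A difference was 0.02 (SE 0.13) and the B difference 0.30 (SE 0.15). The former ranged from -0.089 without ASYM replicate 1 to 0.093 without SYM replicate 2. The latter was 0.20 without ASYM replicate 1, 0.13 without p53SYM replicate 2, 0.48 without p53SYM replicate 1 and 0.10 (SE 0.24) with the hybridization control level as a block.

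Sphk1, the sphingosine kinase that moves to the plasma membrane on activation, was at 7.47, 7.77 and 7.75 in ASYM, 6.54, 6.96 and 6.87 in SYM, and 6.62 and 6.44 in p53SYM. All 3 ASYM arrays were above the 5 arrays of the symmetric lines, and SYM and p53SYM overlapped. The log2 difference was 0.87 (SE 0.13) from SYM, a 1.83-fold difference, and 1.13 (SE 0.15) from p53SYM, a 2.19-fold difference. Between p53SYM and SYM it was -0.26 (SE 0.15, 95% interval -0.58 to 0.06), or -0.17 without p53SYM replicate 2. Without SYM replicate 3 the A difference was 0.91 (SE 0.15), and with the hybridization control level as a block the B difference was 1.25 (SE 0.25). Sphk2, the kinase found also in the nucleus and mitochondria, stayed between 6.57 and 6.89 in all 8 arrays. Its A difference was 0.03 (SE 0.10, 95% interval -0.19 to 0.24), between -0.053 and 0.11 with 1 array left out, so the kinases differed in pattern. Sphk2 overlaps Dbp in the RefSeq table, and Dbp was at 6.46 to 6.94 in ASYM, 5.54 to 5.97 in SYM, and 6.77 and 6.87 in p53SYM, a spread that Sphk2 did not have.

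Of 5 windows for Sphk1 the first is shown, at chr11:116530850-116531149 on the plus strand of GRCm38.p6, because the ASYM arrays of Sphk1 lay above those of both symmetric lines. Capitals mark TATAAA.
Sphk1: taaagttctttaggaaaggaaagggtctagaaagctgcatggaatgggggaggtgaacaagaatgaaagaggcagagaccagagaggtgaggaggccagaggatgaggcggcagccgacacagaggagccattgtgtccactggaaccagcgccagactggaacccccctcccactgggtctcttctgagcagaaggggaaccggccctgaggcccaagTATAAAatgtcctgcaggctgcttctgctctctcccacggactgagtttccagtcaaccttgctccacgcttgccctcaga
This window held 1 TATAAA on the strand shown and 6 CpG. The other 4 held 21, 21, 14 and 15 CpG and no TATAAA, so the window shown does not stand for them. Neither a GC box nor a p53 half-site was found in any of the 5 Sphk1 windows.

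**Figure D2:**
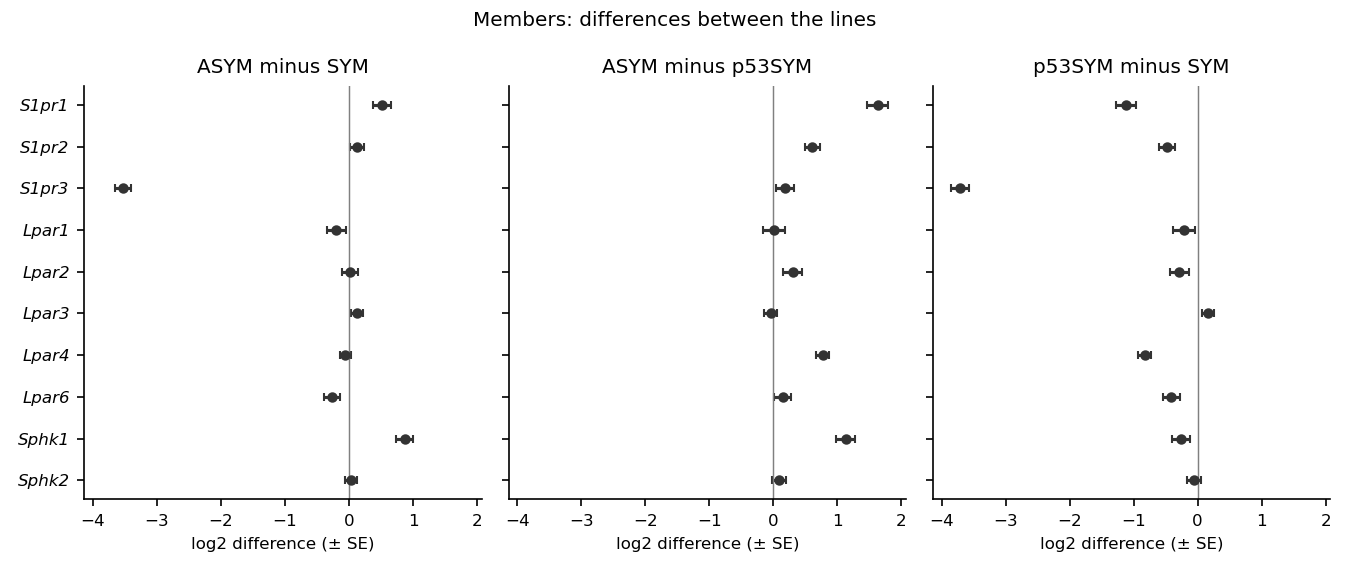
Log2 difference of each member in the A, B and C comparisons (ASYM 3, SYM 3 and p53SYM 2 arrays), as points with bars of 1 SE from limma. S1pr3 lies at -3.53 in A and -3.71 in C, S1pr1 at 1.63 and Sphk1 at 1.13 in B.

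Counted over the 10 members, in the A comparison limma called 2 higher and 1 lower in ASYM, where it called 10.9% of all probe sets higher and 11.0% lower, and the rank product test called 1, where it called 3.65%. For the B comparison limma called 4 higher in ASYM (15.6% of all probe sets, with 15.5% lower) and the rank product test 1 (2.02% of all). In the C comparison limma called 5 lower in p53SYM (15.1% of all probe sets, with 10.2% higher) and the rank product test 2 (2.31% of all). Nothing is read from these counts, since the members were chosen with results of these arrays known. The median difference of the members was 0.02 in A, 0.24 in B and -0.35 in C, beside medians over all probe sets of -0.06, -0.06 and 0.04. With the hybridization control level as a block, limma called 2 members in A, 2 in B and 3 in C. That fit called 16.2%, 3.14% and 13.6% of all probe sets in A, B and C, against 21.9%, 31.1% and 25.4% without the block, so the loss was not one of the members alone. The A count was also 2 without ASYM replicate 2, ASYM replicate 3 or SYM replicate 2 (15.5% to 19.3% of all called). S1pr1 was the member lost each time, at A differences of 0.40 to 0.47. Leaving out SYM replicate 3 gave the same A fit as the block, with S1pr1 lost at 0.51, so it is no further check. In C it was 3 without SYM replicate 2 or p53SYM replicate 2, where 18.7% and 13.7% of all were called. The rank product count in C was 1 whichever SYM or p53SYM array was left out, with 0.755% to 0.959% of all probe sets called. In B it was 0 without ASYM replicate 2, without ASYM replicate 3 or without p53SYM replicate 1 (0.595% to 0.804% of all), where limma called 4 each time (21.8% to 27.9% of all).

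Genes nearest in pattern were found for the members whose line means spanned over 1 log2 unit, by the Euclidean distance between log2 values over the 8 arrays after each gene's mean was subtracted. Nearest to S1pr3 was Cd302, a C-type lectin receptor, at a distance of 0.36, with line means of 4.39 in ASYM, 7.99 in SYM and 4.10 in p53SYM. The next, Egln3, was farther off at 1.32, followed by Gjb2 at 1.77, Cldn1 at 1.84 and Cth at 2.06. S1pr1 had Nedd9 (0.38), Fam13c (0.42), Pdgfrl (0.45), Col6a1 (0.48) and Prr5l (0.48), all highest in ASYM and lowest in p53SYM. Sphk1 had Pltp (0.23), Krt19 (0.23), Ifi35 (0.30), Ifitm3 (0.31) and Lynx1 (0.32), all highest in ASYM. These genes were picked for their pattern, so their values carry no test.

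**Figure D3:**
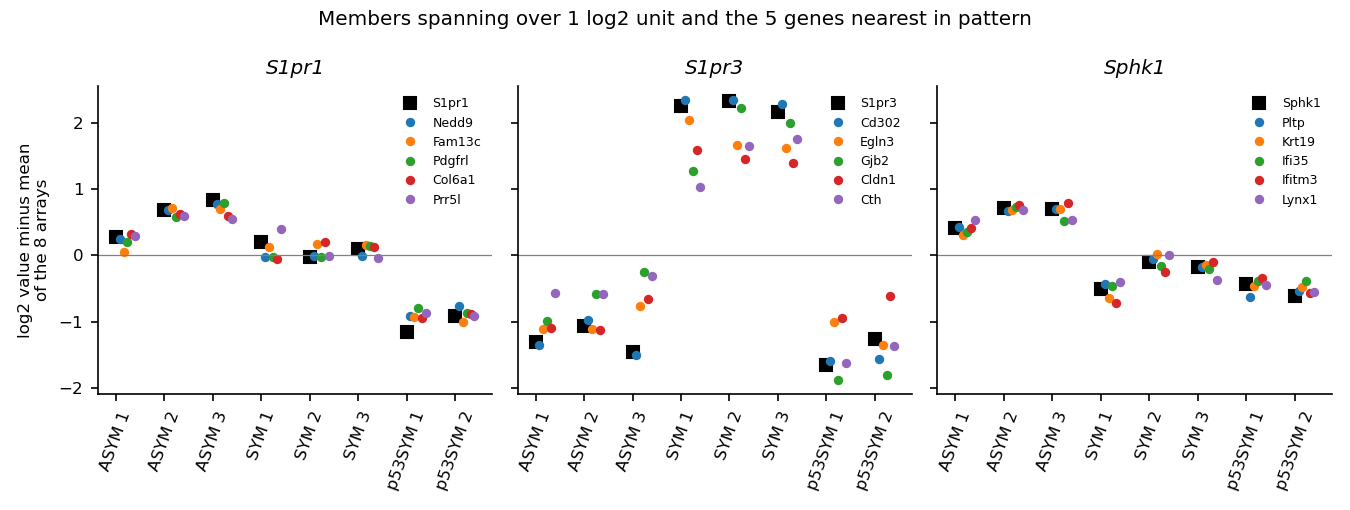
Log2 value minus the gene's mean over the 8 arrays, for S1pr1, S1pr3 and Sphk1 (black squares) and the 5 genes nearest to each (coloured points), array by array. Cd302 follows S1pr3 at a distance of 0.36, and the next gene lies at 1.32.

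The other genes of the pathway were taken from lists of 51 genes, of which 46 were measured in 48 value profiles. In the A comparison limma called 10 profiles higher and 5 lower in ASYM. For B it called 11 higher and 1 lower in ASYM, and for C 4 higher and 10 lower in p53SYM. The rank product test called 3 in A, 1 in B and 4 in C. These stand beside the shares of all probe sets given above. The median difference over the 48 profiles was 0.11 in A, 0.06 in B and 0.02 in C, and over all probe sets -0.06, -0.06 and 0.04. With the hybridization control level as a block limma called 12 in A, 1 in B and 7 in C, beside the 16.2%, 3.14% and 13.6% of all probe sets called in that fit. Calls of single genes that end with the block, given below, stand beside the same general loss. Leaving out p53SYM replicate 2 gave 6 in B and 8 in C (12.3% and 13.7% of all), and leaving out p53SYM replicate 1 gave 9 in C (18.6% of all). By the rank product test A had 0 without ASYM replicate 2 (1.63% of all), where limma called 13 (15.5% of all). That test gave 0 in C without p53SYM replicate 1 or p53SYM replicate 2 (0.959% and 0.808% of all), where limma called 9 and 8. The B count of that test was 2 without ASYM replicate 2 (0.715% of all) and 0 without any 1 of the other ASYM or p53SYM arrays (0.595% to 0.804% of all), where limma called 6 to 12. The C count was 2 without any 1 SYM array (0.755% to 0.928% of all). Cers4, Enpp2, Plpp3 and Ccn2 are named below by a rule that itself uses their calls and differences. The other genes named below make up small counts and were named after their values were seen.

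Enpp2, which encodes autotaxin, was the pathway gene with the widest differences in A and C. In B those of Ccn2 (1.20) and Cers4 (1.10) were wider. Its first probe set read 7.33, 8.69 and 7.27 in ASYM, 6.09, 6.71 and 6.55 in SYM, and 8.82 and 8.65 in p53SYM. The second read 7.36, 8.61 and 7.16 in ASYM, 5.89, 6.46 and 6.16 in SYM, and 8.72 and 8.44 in p53SYM. SYM was lowest in both rows and p53SYM highest, with ASYM replicate 2 among the p53SYM values and apart from the other 2 ASYM arrays. Enpp2 rose in p53SYM over SYM by 2.28 (SE 0.36, limma adjusted p = 0.00134) and 2.41 (SE 0.35, limma adjusted p = 0.000843) in the 2 rows, every p53SYM array being above every SYM array. It rose in ASYM over SYM by 1.31 (SE 0.32, limma adjusted p = 0.0151) and 1.54 (SE 0.31, limma adjusted p = 0.00615). ASYM replicate 2 weighed on the latter: without it the A differences were 0.85 and 1.09. Both kept their limma call (limma adjusted p = 0.0113 and 0.00359), while the rank product test called no pathway profile in A. Without SYM replicate 1 the first row missed the threshold in A (1.13, limma adjusted p = 0.0512). In the B comparison the differences of -0.97 and -0.87 missed the threshold (limma adjusted p = 0.0633 and 0.0830). On quantile normalization again the first row passed it (-1.12, limma adjusted p = 0.0479) and the second did not (-1.02, limma adjusted p = 0.0585). Without ASYM replicate 2 they were -1.44 and -1.31 and passed it (limma adjusted p = 0.00140 and 0.00199). Pla1a, Liph and Agk, the other enzymes of the LPA production list, passed it in none of the 3 comparisons in the fit to all 8 arrays, with values between -0.40 and 0.20. Pla1a and both Liph rows stayed below 4.30 in all 8 arrays, so their lack of calls says little.

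**Figure D4:**
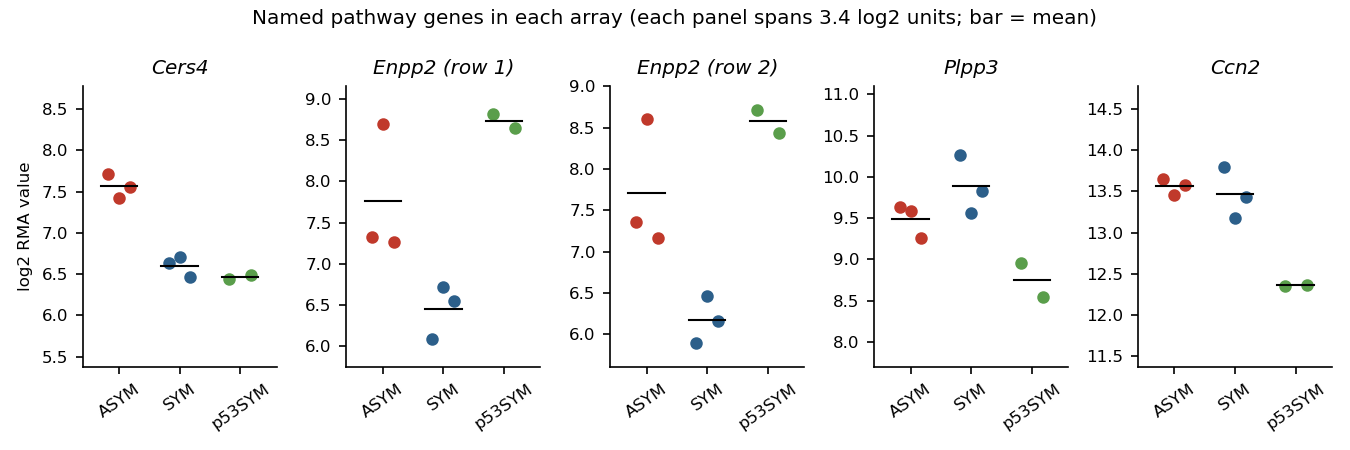
Log2 RMA value in each array of the named pathway genes, by line (ASYM 3 arrays, SYM 3, p53SYM 2), with a bar at the mean; each panel spans 3.4 log2 units. Both Enpp2 rows show ASYM replicate 2, at 8.69 and 8.61, level with p53SYM, and Ccn2 is at 12.36 and 12.37 in p53SYM.

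The phosphatases encoded by the Plpp genes remove phosphate from both lipids at the outer face of the membrane. Of 4 genes of LPA and S1P dephosphorylation, limma called 1 higher in ASYM in A, 2 higher in ASYM in B and 1 lower in p53SYM in C, beside 10.9%, 15.6% and 15.1% of all probe sets. Plpp2 and Acp6 were called in none of the comparisons, with differences between -0.18 and 0.24. Plpp3 was at 9.63, 9.59 and 9.26 in ASYM, 10.26, 9.57 and 9.83 in SYM, and 8.96 and 8.54 in p53SYM. ASYM and SYM overlapped, and both p53SYM arrays were below them. It fell in p53SYM against SYM (-1.13, SE 0.20, limma adjusted p = 0.00258), and ASYM was above p53SYM by 0.74 (SE 0.20, limma adjusted p = 0.0202). The B call ended without ASYM replicate 1 (0.67), ASYM replicate 2 (0.69) or p53SYM replicate 2 (0.53), and with the hybridization control level as a block (0.66, limma adjusted p = 0.357). Plpp1 rose in ASYM against SYM by 0.45 and against p53SYM by 0.58 (limma adjusted p = 0.0119 and 0.00533), every ASYM array being the higher. The B call of Plpp1 also ended with that block (0.49, SE 0.20, limma adjusted p = 0.222).

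Of 5 genes that remove or export S1P, limma called 1 higher and 1 lower in ASYM against SYM, beside 10.9% and 11.0% of all probe sets. The former was Sgpl1, the lyase that degrades S1P irreversibly, at 9.31, 9.63 and 9.45 in ASYM and 9.12, 9.03 and 8.91 in SYM, a rise of 0.44 (SE 0.10, limma adjusted p = 0.0117). The latter was the S1P phosphatase Sgpp1 (-0.46, SE 0.13, limma adjusted p = 0.0279), a call that ended without any 1 of 4 of the 6 arrays compared (differences of -0.36 to -0.48, limma adjusted p = 0.0608 to 0.0909). Sgpl1 was also higher in p53SYM than in SYM, by 0.38 (SE 0.12, limma adjusted p = 0.0365), a call that ended in 6 of 13 alternatives, among them each p53SYM array left out and the hybridization control level as a block (0.48, limma adjusted p = 0.0676). The exporter Spns2 gave differences of -0.08, -0.10 and 0.02 in A, B and C, which passed no threshold. SYM replicate 3 weighed on those of A and C, at 5.43 against 4.89 and 4.96 in the other SYM arrays. Within arrays of low control level the A difference was 0.085. Within those of high level, where SYM has replicate 3 alone, the C difference was -0.32.

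Among 17 measured genes of sphingosine and ceramide supply, limma called 4 higher and 1 lower in ASYM against SYM, 4 higher and 1 lower against p53SYM, and 1 higher and 2 lower in p53SYM against SYM. The shares of all probe sets were 10.9% and 11.0% in A, 15.6% and 15.5% in B, and 10.2% and 15.1% in C, higher and lower in turn. Cers4, a ceramide synthase, had values of 7.71, 7.43 and 7.56 in ASYM, 6.63, 6.71 and 6.47 in SYM, and 6.44 and 6.49 in p53SYM. Like those of Sphk1, its 3 ASYM arrays were above the 5 others. Cers4 rose in ASYM by 0.96 over SYM (SE 0.10, limma adjusted p = 0.000192) and by 1.10 over p53SYM (SE 0.12, limma adjusted p = 0.000171). The other genes higher in A were Kdsr (0.69), Cerk (0.52), the ceramide kinase, and the lysosomal acid ceramidase Asah1 (0.49), which frees sphingosine. The call of Asah1 ended in 5 of 14 alternatives, at differences of 0.40 to 0.48 (limma adjusted p = 0.0525 to 0.0778): the hybridization control level as a block, and leaving out any 1 of 4 arrays. Leaving out SYM replicate 3, which is among these, is in A the same fit as the block. Ugcg, the glucosylceramide synthase, was lower in ASYM than in SYM (-0.48) and lower still in p53SYM (-0.96 against SYM). The sphingomyelin synthase Sgms1 was lower in p53SYM than in SYM (-0.82) and Cerk higher (0.39), and with the hybridization control level as a block both calls ended, at -0.65 and 0.38 (limma adjusted p = 0.0521 and 0.197). The block was the only alternative of 13 to end the call of Sgms1, whereas 8 ended that of Cerk. With the block limma called 2 genes of this list in C, of which 1 had been called without it. In B the genes higher in ASYM were Cers4, Sgms1 (0.61), Ugcg (0.48) and Degs1 (0.38), and the lower one was Acer2 (-0.45), whose values stayed below 4.30 in all 8 arrays. Of these 5 B calls only that of Cers4 was kept with the block, where Sgms1 was at 0.35, Ugcg at 0.37, Degs1 at 0.25 and Acer2 at -0.16 (limma adjusted p = 0.454, 0.268, 0.518 and 0.707). Over all alternatives the calls of Degs1, Acer2, Sgms1 and Ugcg ended in 6 of 13, 5 of 12, 2 of 13 and 1 of 13.

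**Figure D5:**
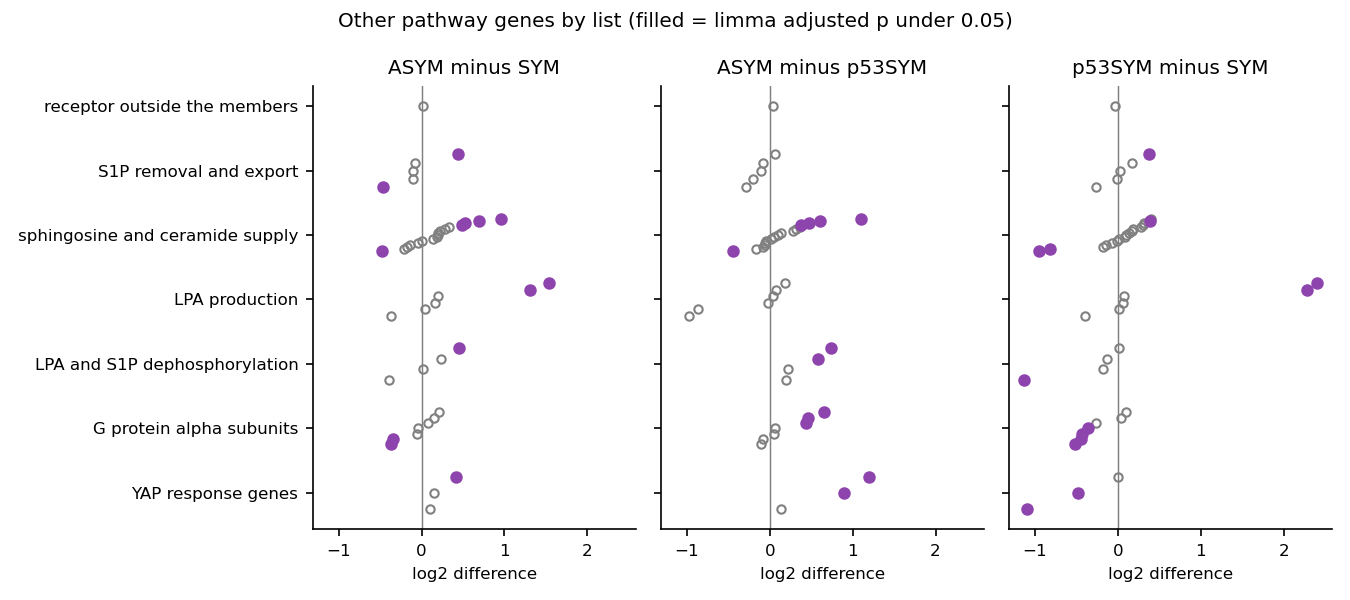
Log2 differences of 43 pathway profiles in the A, B and C comparisons, by list, filled where limma's adjusted p was under 0.05 and open otherwise. The widest are the 2 Enpp2 rows of LPA production, at 2.28 and 2.41 in C.

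Downstream, 7 G protein alpha subunits were measured. In C limma called 4 lower in p53SYM, where it called 15.1% of all probe sets lower: Gna11 (-0.51), Gnaq (-0.44), Gna12 (-0.43) and Gnai2 (-0.36). Gnaq, Gna11 and Gnai2 were also lower in p53SYM than in ASYM, by 0.65, 0.46 and 0.44, where 15.6% of all probe sets were called higher in ASYM and 4 of the 7 subunits were not called. In A the G12/13 subunits Gna12 (-0.37) and Gna13 (-0.34) were called lower in ASYM, as were 11.0% of all probe sets, and 5 of the 7 were not called. With the hybridization control level as a block, the call of Gna11 in C was the only one of the 4 to be kept, beside -0.31 for Gnaq, -0.37 for Gna12 and -0.35 for Gnai2 (limma adjusted p = 0.266, 0.0981 and 0.161). Those of Gnaq, Gna12 and Gnai2 in C ended in 5, 2 and 8 of 13 alternatives. None of the 3 B calls was kept with it, at 0.46 for Gnaq, 0.55 for Gna11 and 0.42 for Gnai2 (limma adjusted p = 0.264, 0.133 and 0.255), and they ended in 1, 2 and 4 of 13 alternatives. The A call of Gna13 ended without any 1 of 4 arrays, at differences of -0.30 to -0.33. That of Gna12 ended without SYM replicate 2 (-0.32, limma adjusted p = 0.0536).

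Of 3 genes known to respond to YAP, limma called Ccn2 and Ankrd1 lower in p53SYM in C and higher in ASYM in B, where it called 15.1% and 15.6% of all probe sets so. In A it called 1 higher in ASYM, beside 10.9% of all. Ccn2 was at 13.65, 13.46 and 13.58 in ASYM, 13.80, 13.17 and 13.43 in SYM, and 12.36 and 12.37 in p53SYM. ASYM and SYM overlapped, and p53SYM was apart from both. Ccn2 fell in p53SYM by 1.10 against SYM (SE 0.16, limma adjusted p = 0.000746), and ASYM was above p53SYM by 1.20 (SE 0.16, limma adjusted p = 0.000571). With the hybridization control level as a block the B difference of 1.14 missed the threshold (limma adjusted p = 0.0582). Ankrd1 was below SYM by 0.49 in p53SYM and above it by 0.41 in ASYM (limma adjusted p = 0.0156 and 0.0216), and both calls ended with that block, at -0.44 and 0.39 (limma adjusted p = 0.127 and 0.0678). They ended in 3 of 13 and 4 of 14 alternatives. The latter tally holds the block and the loss of SYM replicate 3, the same fit in A, as separate entries. ASYM was above p53SYM by 0.90 (SE 0.12, limma adjusted p = 0.000712), or by 0.83 with that block (limma adjusted p = 0.0702), the only alternative to end this call. Ccn1 stayed between 11.84 and 12.26 in all 8 arrays. In S1pr1, S1pr2 and Lpar4 both p53SYM arrays lay below all other arrays, and the other members did not share this order. Ccn2, Ankrd1, Plpp3, Col1a1, Col3a1 and Vim had it too, while Ccn1, Col1a2, Pdgfrb, Thy1 and S100a4 did not. These genes were named after their values were seen, and limma called 15.1% of all probe sets lower in p53SYM in C. Whether those with this order shared a source was not tested.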

How the data were processed

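RNA from 3 ASYM, 3 SYM and 2 p53SYM cultures was hybridized to 1 array each. The authors applied RMA, using a chip definition (version 12) that groups probes by RefSeq transcript, and deposited log2 values, which run from 2.67 to 14.56. They were used as deposited, without the 64 control probe sets of 22587. A RefSeq table of GRCm38.p6, used for names and neighbours only, named 18294 of 22523 probe sets (81.2%). Array medians lay between 6.12 and 6.19. The number of arrays limits the precision. The labels call the cultures biological replicates.

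Log2 differences and standard errors came from limma 3.58.1 in R 4.3.3, with the 3 lines in a single fit, p-values adjusted by Benjamini-Hochberg over 22523 probe sets, and calls were made at an adjusted p under 0.05. The rank product test of the methods was re-implemented with 100 permutations and a pfp (percent false positive) under 0.05. Both were also run on simulated data, and the outcomes are not given here. Python 3.11.15 was used with numpy 2.4.6, pandas 2.3.3 and matplotlib 3.10.9.

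The members and the gene lists were chosen with earlier results of these data known. Named genes were the members, the label check genes, the marker genes, each pathway gene called by the rank product test or with the widest positive or negative difference in a comparison, and for each member spanning over 1 log2 unit and above the 25th percentile the 5 genes nearest in pattern. S1pr4, Lpar5, Cers1, Cers6 and Cd79a were not analysed here. A result withheld for evaluation is not reported here, and the counts over the 48 pathway profiles include 5 profiles that are not described. Alternatives were the compared groups alone, a replicate block, a trend in the prior, the hybridization control level as a block, each value profile once, probe sets above the 25th percentile, quantile normalization again, centring on array medians and leaving out each array. Another random seed was chosen after seeing the data.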

Additional observations from a re-analysis of the deposited data

Results flagged for a closer look

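The 3′ control probe set of 18S ribosomal RNA read 11.38 in SYM replicate 3, against 6.59 to 7.67 in the other 7 arrays, and it was outside the measurements that the comparisons use. The 5′ and middle probe sets of the same RNA read 10.97 and 9.53 there, against 4.55 to 5.25 and 5.59 to 6.45 elsewhere. S1pr3 in this array was at 8.32, beside 8.41 and 8.48 in the other SYM arrays.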

How the results depend on the processing

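Groups of 3, 3 and 2 arrays and signal near 4.30, the 25th percentile, limit what can be seen, and the causes of the changes below were not tested. The replicate numbers paired the arrays in part at most, and the main fit left them out. Deviations of same-numbered arrays correlated at 0.27, 0.03 and 0.38 in A, 0.01 and -0.23 in B, and 0.20 and 0.04 in C, and in A 4 of 6 arrays correlated best with their own number. With a replicate block limma called 3, 4 and 4 members and 16, 16 and 14 pathway profiles in A, B and C. That fit called 23.9%, 37.0% and 28.3% of all probe sets, against 21.9%, 31.1% and 25.4% without the block.

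With the hybridization control level as a block limma called 2 members in B and 3 in C, and 1 pathway profile in B and 7 in C, where it called 3.14% and 13.6% of all probe sets. Among probe sets above the 25th percentile, which are fewer, the rank product test called 1 member in C, and 0 pathway profiles in B and 2 in C. Quantile normalization again gave the same 0 and 2. Without single arrays of the compared lines, the rank product count of members was 1 to 1 in A, 0 to 1 in B and 1 to 1 in C, and that of pathway profiles 0 to 2 in A, 0 to 2 in B and 0 to 2 in C. By limma, members called were 2 to 3, 3 to 4 and 3 to 5, and pathway profiles 10 to 13, 6 to 12 and 8 to 13. Where 1 p53SYM array was left, it was assumed to vary like the other lines. Ccn2 in A, not called, ranged from -0.048 without SYM replicate 2 to 0.26 without SYM replicate 1. The other counts of calls stayed within 1.5 times. Over all alternatives, 378 recomputed member differences moved by under 1 SD and 19 by more, and none that limma called changed sign. Among those of the named pathway genes, 190 kept their side of the threshold, 6 lost it, 3 gained it and 1 reversed. Another random seed, chosen after seeing the data, gave the same rank product counts of members and pathway profiles. Over all probe sets the counts moved from 822, 456 and 520 to 785, 448 and 519 in A, B and C.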
